A study of Homo sapiens with 6 samples.

Results

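Genes that build ribosomes were followed in the tongue squamous carcinoma line SAS after siRNA against IGF2BP1. IGF2BP1 is an oncofetal protein that binds mRNAs and protects many of them from decay. The set holds 55 genes of the nucleolus and of ribosome assembly, picked by gene symbol from the 62700 genes of the deposited count table, and each of the 55 symbols matched exactly 1 row. Poly(A) RNA was sequenced from 3 libraries of cells given a control siRNA (labelled siC, genotype WT) and 3 of cells given an siRNA against IGF2BP1 (labelled siIGF2BP1). All 6 libraries come from this 1 cell line. The labels do not say how long the siRNA acted, whether it was 1 sequence, or whether replicates were separate cultures, so the p-values rest on a spread between libraries that may be purely technical. The series asked whether IGF2BP1 counters the repression of YAP1 by Hippo signalling, and ribosome synthesis is read here as a further output of the same comparison.

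Ribosome synthesis starts in the nucleolus, where RNA polymerase I transcribes a long precursor that is folded, chemically modified and cut into the rRNAs. Small nucleolar ribonucleoproteins (snoRNPs) guide the modifications: box C/D particles methylate riboses and box H/ACA particles turn uridine into pseudouridine. The precursors of the small and the large subunit are then assembled by separate sets of factors. In carcinoma cells these genes are widely known as growth genes, and many are direct targets of the transcription factor MYC. The 55 genes were grouped by role into 3 of box C/D snoRNPs, 4 of box H/ACA snoRNPs, 7 of RNA polymerase I transcription, 6 nucleolar phosphoproteins with a helicase, 17 of the small subunit and 18 of the large subunit.

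Library totals lay between 17918496 and 26675064 reads, of which the 55 genes took 0.515% to 0.587%. IGF2BP1 itself, the check of the labels, fell from 9.64 ± 1.55 to 1.16 ± 0.399 CPM, read counts scaled to library size by TMM (SD, n = 3 each). Of the squamous epithelial markers, KRT14 and KRT17 stood at 1417 CPM or more in each library, and DSG3 at 0.825 to 3.15 CPM. KRT5 read 3446 to 3853 CPM in controls and 439 to 496 CPM after knockdown. KRT5 (log2 fold change -2.91), KRT6A (-2.02) and KRT14 (-0.43) were called lower, and KRT17, TP63 and DSG3 were not called. The summed level of the 6 squamous markers was 7659 to 8441 CPM in controls and 4077 to 4435 CPM after knockdown, with 3 of 6 called lower. Of 5 leukocyte markers 3 were at 0 in all libraries, PTPRC among them, with a sum of 17.0 to 18.4 CPM in controls and 11.9 to 13.97 CPM after knockdown. Of 6 fibroblast markers 3 were at 0, LUM and DCN among them, and the sums were 6.29 to 8.50 and 5.72 to 9.18 CPM. PDGFRB alone of these 6 was called, at 0.384 to 0.775 CPM in controls and 1.38 to 2.28 CPM after knockdown (1.52, adjusted p = 0.0491). The 4 endothelial markers summed to 6.29 to 7.41 and 6.17 to 13.5 CPM. The part of the lower squamous markers and of PDGFRB in the results below was not tested. Knockdown 1 stood apart in ribosomal RNA, with RNA5-8SN3 at 543 CPM against 21.3 to 50.7 CPM in the other 5 libraries.

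After IGF2BP1 knockdown 7 ribosome synthesis genes fell and 0 rose. The 7 were IMP3, NOP56, TCOF1, RRP1, RRS1, WDR74 and DDX56. Their levels dropped by between 22.4% (DDX56) and 36.1% (IMP3), so the changes were modest in size. Of the 55 genes 54 had enough reads to be tested. LTV1, a factor that escorts the small subunit out of the nucleus, was the exception, with 3 to 28 reads per library. Calls are those of edgeR's quasi-likelihood test with a Benjamini-Hochberg adjusted p under 0.05, taken over all 14649 tested genes.

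The 7 falls are 13.0% of the tested members. Over all tested genes 6.66% were called lower and 6.27% higher, and by either call 12.9%. Lower genes made up 51.5% of all calls, and 36.8% with no scaling factor, which called the same 7 members lower and 0 higher. Calls are more frequent among abundant genes, and 25 of the 54 members lie in the most abundant quintile of tested genes and 11 in the next. In those 2 quintiles 15.8% and 11.2% of genes were called lower and 9.32% and 8.91% higher. The share of falling members is therefore close to that of genes of like abundance. Whether the absence of rises differs from those genes was not tested. At an unadjusted p under 0.05 there were 11 lower members (20.4%) and 0 higher. Of all tested genes 12.6% were lower and 13.1% higher by that rule, 25.7% in all, so the members have no excess when both directions are counted. DESeq2 called 8 lower and 0 higher, and limma-voom 7 and 0. Without knockdown 3 the number of falls was 4 (IMP3, NOP56, RRP1 and TCOF1), which were called lower in each of the 14 other fits tried.

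The members leaned downward as a group. The fitted log2 fold change was below 0 for 39 of 54 (72.2%), against 46.7% of all tested genes. In the 2 most abundant quintiles it was below 0 for 56.2% and 53.1% of genes. With no scaling factor 33 of 54 members were below 0. Their median was -0.14 (90.6% of control), against 0.03 over all tested genes and -0.05 in the most abundant quintile. Libraries of the 2 groups did not overlap for 13 members, 12 of them lower (22.2%, background 15.1%) and 1 higher (1.85%, background 15.5%). In the 2 most abundant quintiles 26.9% and 23.2% of genes were lower by this rule, and 17.9% and 16.9% higher. The share of lower members is thus close to that of genes of like abundance. With no scaling factor the median was -0.057 for the members and 0.12 for all tested genes. Without knockdown 2 the members' median was -0.23 and without knockdown 3 it was -0.10. Summed over the 55 genes, the control libraries gave 5900, 6028 and 5662 CPM, and the knockdown libraries gave 5332, 5276 and 5122 CPM. The 3 knockdown sums all lie below the 3 control sums. This separation depends on the TMM scaling. As unscaled shares of all reads, the members took 0.566%, 0.587% and 0.553% in controls and 0.541%, 0.563% and 0.515% in knockdowns. There knockdown 2 lies above control 3.

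For 28 of the 54 tested members (51.9%) the 95% interval of the fold change lay within 1.5-fold in either direction. This held for 27.0% of all tested genes, and for 71.7% and 50.1% in the 2 most abundant quintiles. In quintiles 3, 2 and 1, which hold 9, 6 and 3 members, it held for 13.4%, 0% and 0% of genes. Whether the members were bounded more tightly than genes of like abundance was not tested. For 44 members the interval excluded a 2-fold change.

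**Figure D1:**
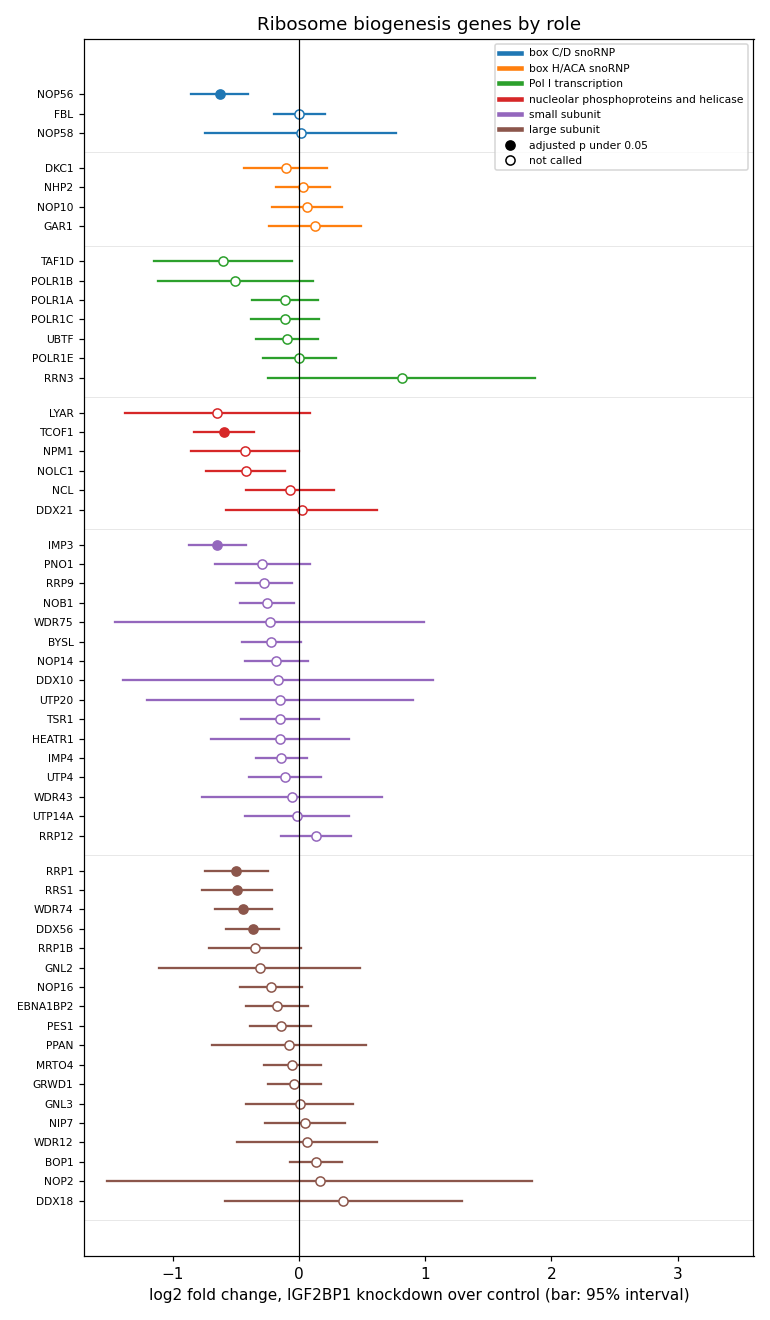
Log2 fold change of each tested ribosome synthesis gene (x axis, knockdown over control) with its 95% interval, grouped by role on the y axis. Filled points mark the 7 genes at an adjusted p under 0.05, all to the left of 0, and the widest bars belong to genes with few reads such as NOP2.

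Among the box C/D proteins NOP56 fell, and FBL and NOP58 were not called. NOP56 (ENSG00000101361; GRCh38 chromosome 20, 2652145 to 2658393, plus strand) is a scaffold of the particle and its introns carry several snoRNAs. Its controls read 222, 264 and 230 CPM, and its knockdowns 159, 141 and 164 CPM. Each knockdown value lies below each control value. On the log2 scale it fell by 0.63 (SE 0.11, adjusted p = 0.000847). Of its exon bases 8.74% are shared with snoRNA and microRNA genes on the same strand, and 3 loci are annotated as its pseudogenes.

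Fibrillarin (FBL), the methyltransferase that NOP56 positions, had 310, 315 and 302 CPM in controls and 302, 310 and 318 CPM after knockdown. The values of both groups are interleaved, and the 95% interval of its log2 fold change (0.00) runs from -0.20 to 0.20. The sign of that value turned with RLE scaling (-0.013). Per base of gene length, the level of NOP56 relative to FBL was 0.310, 0.362 and 0.329 in the control libraries and 0.227, 0.197 and 0.223 in the knockdown libraries. The ratio was lower in each knockdown library. This pair was chosen after its values were seen, so the ratio is a description with no test.

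NOP58, the paralog that sits opposite NOP56 in the particle, was far scarcer, with 2.76, 3.57 and 3.68 CPM in controls and 2.25, 5.51 and 2.34 CPM after knockdown. Knockdown 2 is the highest library and the other 2 knockdowns are the lowest. The interval of its log2 fold change (0.02, with a sign that turned in several fits) was wide, from -0.74 to 0.77, and includes a fall as large as that of NOP56. Without knockdown 2 the value of NOP58 was -0.56 (adjusted p = 0.345).

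None of the 4 box H/ACA core genes was called, and none had an unadjusted p under 0.05. The pseudouridine synthase gene DKC1, mutated in dyskeratosis congenita, went from 26.0 ± 2.25 to 24.2 ± 3.81 CPM (SD, n = 3 per group; -0.11 on the log2 scale). NHP2 read 347, 341 and 316 CPM in controls against 314, 365 and 346 CPM in knockdowns (0.03), and 27.4% of its exon bases overlap RMND5B, which is transcribed the other way. GAR1 had a log2 fold change of 0.13 and NOP10 of 0.06. In all 4 genes the 95% interval lay within 1.5-fold. Their median SE, 0.14, was that of the members as a whole. NOP10 ranged from low to high among knockdowns, with 63.8, 87.6 and 90.1 CPM against 75.4 to 78.0 CPM in controls.

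Of the 7 genes of RNA polymerase I transcription 0 were called, and 1 (TAF1D) had an unadjusted p under 0.05. POLR1A, the largest subunit, went from 88.7 ± 3.81 to 82.2 ± 13.4 CPM, and UBTF, which keeps ribosomal DNA open for transcription, from 138 ± 10.5 to 129 ± 16.9 CPM (SD, n = 3 each). POLR1E stood between 25.4 and 28.2 CPM in all 6 libraries. TAF1D, a subunit of the promoter selectivity factor and a snoRNA host, had 9.86, 18.9 and 11.4 CPM in controls and 6.60, 11.2 and 8.56 CPM after knockdown. The groups overlap (-0.60, SE 0.26, adjusted p = 0.148). POLR1B, which forms the catalytic core with POLR1A, was at -0.50 on the same scale (adjusted p = 0.302). RRN3, which links the polymerase to its promoter, rested on 11, 19 and 35 reads in controls and 22, 53 and 30 after knockdown (0.81, adjusted p = 0.34). RRN3 has 3 annotated pseudogenes under its name, for which 0 reads were counted in any library. The handling of multi-mapped reads is not given, so the value of RRN3 is also uncertain.

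The 6 nucleolar phosphoprotein and helicase genes had a median of -0.42, with 5 of 6 below 0, against 46.7% of all tested genes. TCOF1 (ENSG00000070814; chromosome 5, 150357629 to 150400308, plus strand) encodes treacle, which couples polymerase I transcription to rRNA modification and is mutated in Treacher Collins syndrome. Controls held 420, 354 and 373 CPM of it and knockdowns 290, 234 and 237 CPM, with no overlap. It fell by 0.59 on the log2 scale (SE 0.11, adjusted p = 0.00209).

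NOLC1, a snoRNP chaperone that is a close relative of treacle in its repeats, had 87.3, 102 and 117 CPM in controls and 82.0, 87.7 and 59.4 CPM after knockdown. Its highest knockdown library exceeds its lowest control by a small margin. It missed the threshold (-0.42, SE 0.15, adjusted p = 0.0716) and was called in 5 of the 14 alternatives, with adjusted p-values from 0.00502 (no count filter) to 0.279 (without knockdown 3, where the value was -0.27). Nucleophosmin (NPM1), an abundant histone and ribosome chaperone, averaged 124 ± 29.4 CPM in controls and 92.3 ± 20.8 CPM in knockdowns (SD, n = 3 per group; -0.43, adjusted p = 0.195). NPM1 has 45 loci annotated as its pseudogenes, with at most 81 reads in a library against 1276 to 3473 reads of NPM1. The handling of multi-mapped reads is not given, which makes the value of NPM1 uncertain. It was called lower in 4 of the 14 alternatives.

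Nucleolin (NCL), an abundant binder of nascent rRNA precursor, had 112, 124 and 142 CPM in controls and 111, 157 and 92.8 CPM after knockdown. Knockdown libraries 2 and 3 are the highest and the lowest of the 6, and its log2 fold change was -0.07 (0.02 with no scaling factor). LYAR, a nucleolar zinc finger protein, was low in both groups at 2.75 ± 0.441 and 1.75 ± 0.417 CPM (SD, n = 3 each; -0.65, adjusted p = 0.263). The RNA helicase DDX21 had 9.18 ± 2.07 and 9.33 ± 4.13 CPM (SD, n = 3 each).

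Among the small subunit factors, IMP3 fell. IMP3 (ENSG00000177971; chromosome 15, 75639085 to 75648706, minus strand) binds the snoRNA that guides the first cuts of the precursor, and with IMP4 holds it to the pre-rRNA. The name is also an alias of the IGF2BP1 paralog IGF2BP3, which is another gene. Controls held 131, 118 and 117 CPM of IMP3 and knockdowns 73.2, 77.4 and 83.0 CPM. The groups are well apart (-0.65, SE 0.11, adjusted p = 0.000645). Genes on the opposite strand share 59.3% of its exon bases in the annotation, and the strand setting of the counting is not given in the sources used here. One of those genes, SNX33, had a log2 fold change of 0.15 and was not called.

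The IMP3 partner IMP4 was measured with little spread, its controls reading 252, 258 and 255 CPM and its knockdowns 235, 232 and 228 CPM. Every knockdown library is lower, but the difference is small (-0.14, 95% interval -0.34 to 0.06) and was not called. Per base of gene length, IMP3 relative to IMP4 was 0.642 ± 0.0467 in controls and 0.451 ± 0.0356 after knockdown (SD, n = 3 each), again a pair chosen after its values were seen.

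RRP9, another protein of the same snoRNP, had 127, 129 and 116 CPM in controls and 98.6, 109 and 100.1 CPM after knockdown. The groups do not overlap, and the adjusted p was 0.0976 (-0.28). NOB1, the nuclease that makes the last cut of the small subunit rRNA, averaged 194 ± 4.95 CPM in controls and 163 ± 12.8 CPM in knockdowns (SD, n = 3 per group; -0.25, adjusted p = 0.116), without overlap, and an opposite-strand gene covers 20.2% of its exon bases. PNO1, the partner of NOB1, was at -0.29 (adjusted p = 0.335). Of the 16 tested small subunit genes, 15 had a fitted change below 0, and RRP12 was the exception (0.13, and -0.04 without knockdown 1). Below 0 were 46.7% of all tested genes, and 56.2% and 53.1% in the 2 most abundant quintiles. Only 1 of the 16 was called (6.25%), against 6.66% of all tested genes called lower. UTP14A was close to 0, and its sign turned in several fits. UTP20 and DDX10, with under 2 CPM in every library, had wide 95% intervals of the log2 fold change, -1.20 to 0.90 and -1.40 to 1.07.

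The large subunit factors, 18 of the 54 tested members, supplied 4 of the 7 falls. That is 22.2% of them, against 6.66% of all tested genes and 15.8% in the most abundant quintile. The roles of the members were not compared by a test. RRP1 (ENSG00000160214; chromosome 21, 43789513 to 43805293, plus strand), a nucleolar factor of early large subunit processing, had 133, 127 and 108 CPM in controls and 97.2, 79.9 and 84.1 CPM after knockdown. The highest knockdown value lies below the lowest control value (-0.50, SE 0.12, adjusted p = 0.00957). Its paralog RRP1B, on the same chromosome, was scarcer, with 24.9, 29.9 and 35.8 CPM in controls and 22.8, 28.7 and 19.8 CPM after knockdown. Those groups overlap (-0.35, SE 0.17, adjusted p = 0.222).

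RRS1 (ENSG00000179041; chromosome 8, 66429028 to 66430733, plus strand) helps to bring the smallest rRNA of the large subunit into the particle. It went from 60.6, 60.2 and 53.5 CPM in controls to 48.3, 39.5 and 36.4 CPM after knockdown, without overlap (-0.49, SE 0.13, adjusted p = 0.0202). Leaving out control 1, control 2 or knockdown 3 ended the call, with adjusted p-values of 0.0564, 0.0628 and 0.0993.

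WDR74 (ENSG00000133316; chromosome 11, 62832342 to 62841809, minus strand), a WD-repeat protein of nucleolar large subunit precursors, had 182, 166 and 156 CPM in controls and 121, 133 and 118 CPM after knockdown. All knockdown libraries lie below all controls (-0.44, SE 0.10, adjusted p = 0.0103). Of its exon bases 12.2% overlap an opposite-strand gene and 10.1% other genes on its own strand. The adjusted p was 0.0579 without knockdown 3.

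DDX56 (ENSG00000136271; chromosome 7, 44565417 to 44575051, minus strand), a DEAD-box RNA helicase of late nucleolar assembly, had 439, 413 and 424 CPM in controls and 342, 304 and 343 CPM after knockdown. It was the most abundant of the called genes, and its groups do not overlap (-0.37, SE 0.10, adjusted p = 0.0201). Without control 1 the adjusted p was 0.0509, and without knockdown 3 it was 0.05, just above the threshold.

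The PeBoW complex, which BOP1, PES1 and WDR12 form in large subunit maturation, held no called gene. BOP1, its most abundant gene, had 898, 894 and 824 CPM in controls and 998, 960 and 915 CPM after knockdown. It was the only tested member whose knockdown libraries all lay above its controls, but the difference was not called (0.14, 95% interval -0.07 to 0.34). PES1 went from 320 ± 36.2 to 289 ± 31.6 CPM and WDR12 from 9.50 ± 3.11 to 9.92 ± 2.41 CPM (SD, n = 3 each), neither of them called.

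At the low end, NOP2, an rRNA methyltransferase, rested on 9, 21 and 2 reads in controls and 14, 10 and 9 after knockdown. Another gene on the same strand shares 54.4% of its exon bases, so reads of NOP2 may be missing from its row. PPAN shares 59.8% of its exon bases with P2RY11 and a read-through gene. The helicase gene DDX18 was at 0.35 on the log2 scale (adjusted p = 0.679), and at -0.37 without knockdown 2. The remaining large subunit genes ranged from -0.31 (GNL2) to 0.05 (NIP7) and were not called.

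**Figure D2:**
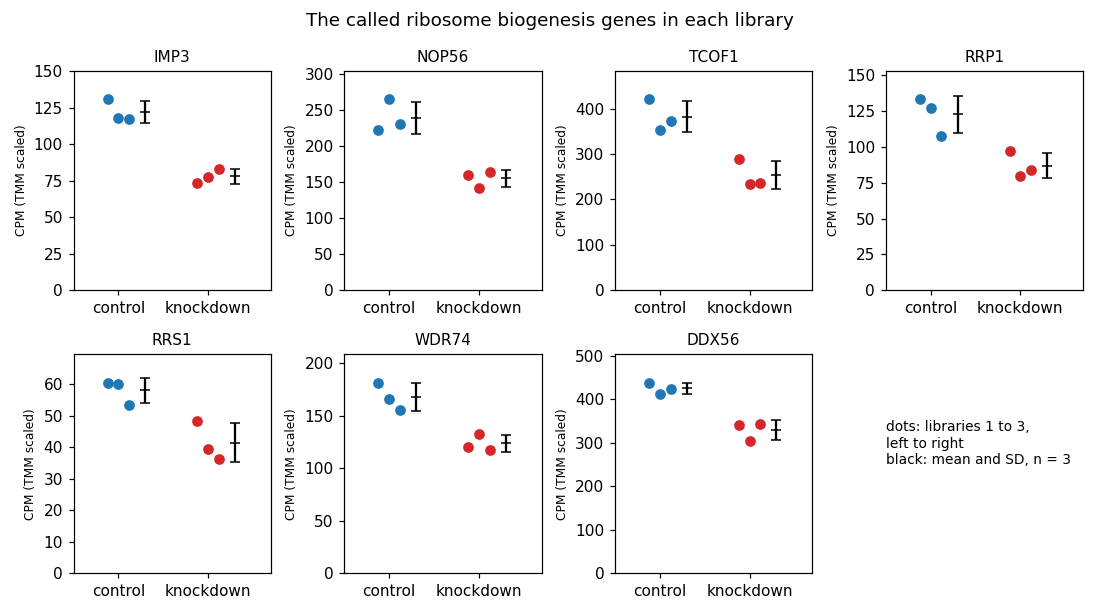
Level of the 7 called genes in each library (y axis, CPM from 0; x axis, group), with the mean and SD beside the dots. In each panel the 3 knockdown dots lie below the 3 control dots, without exception.

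The levels of the members spanned a very wide range, also for proteins that work side by side. In RPKM, CPM divided by gene length in kilobases, the highest in controls were BOP1 (227 ± 10.8), NHP2 (227 ± 11.0), FBL (145 ± 3.11), DDX56 (116 ± 3.48) and NOB1 (92.6 ± 2.35; SD, n = 3 each). BOP1 and NHP2 do not differ beyond their spread. The lowest were DDX10 (0.0449 ± 0.018), NOP2 (0.0978 ± 0.0891) and UTP20 (0.137 ± 0.067), which overlap within their spread. In all, 12 members were under 1 RPKM and 10 above 50. NOP56 and NOP58, which enter the same particle, stood at 48.3 and 1.02 RPKM.

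Levels rose with the GC content of the transcripts. The GC content of the longest coding transcript of each gene ran from 39.3% (WDR75) to 65.2% (BOP1). Across the 55 members, GC content and log2 RPKM in controls had a Pearson r of 0.74 and a Spearman rho of 0.75, and across 11736 tested protein-coding genes an r of 0.48 and a rho of 0.49. These are correlations across genes that share the same libraries, given as descriptions. Whether a technical effect of GC content has a part in these levels was not tested. The 23 members with a GC content of up to 47.2% had a median of 1.02 RPKM and a highest level of 14.9 RPKM (NPM1), and the 32 members above that had a median of 34.3 RPKM. NOP2, at a GC content of 55.9%, was the plainest exception, and PPAN was another, at 63.2% and 2.86 RPKM. Other genes on the same strand share 54.4% of the exon bases of NOP2 and 59.8% of those of PPAN. Reads of both may therefore be missing from their rows.

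Genes called lower were found only among the 32 members of higher GC content, 7 of 32 against 0 of 22 tested members of lower GC content. All tested protein-coding genes show a gradient as well: by GC quintile, from low to high, 1.24%, 4.26%, 9.97%, 13.0% and 9.88% were called lower. The difference between the member classes was not tested, and it is read only beside these shares. The members of lower GC content also had the wider errors, with a median SE of 0.27 against 0.12. Whether GC content has a part in which members were called was not tested. Across the tested members GC content and the log2 fold change had a Pearson r of -0.18 and a Spearman rho of -0.14.

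**Figure D3:**
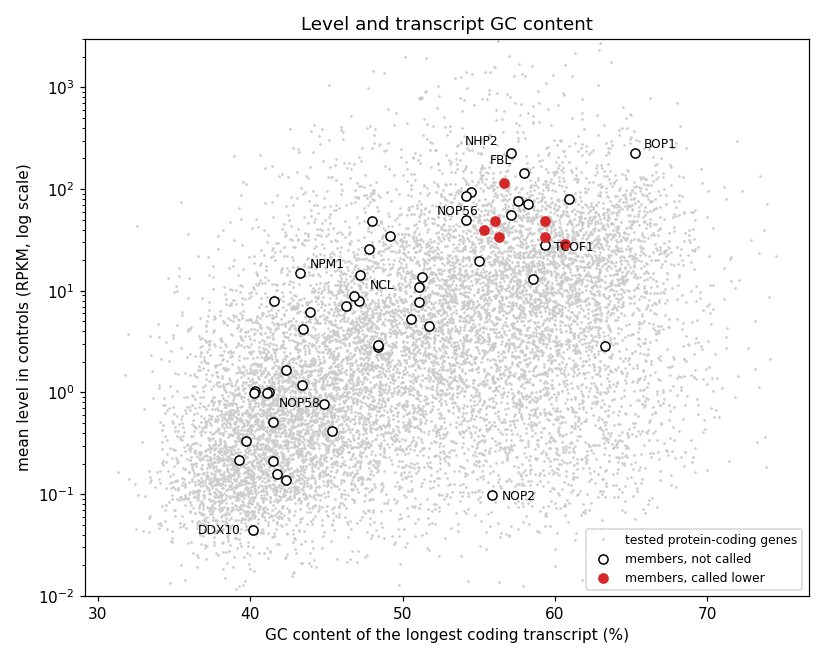
Mean level in controls (y axis, RPKM on a log scale) against the GC content of the longest coding transcript (x axis, percent) for tested protein-coding genes (grey) and ribosome synthesis genes (circles). The members climb from under 1 RPKM near 40% GC to 227 RPKM for BOP1, and the 7 called genes (red) all lie in the upper right.

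Libraries of 1 group differed from each other in the members of lower GC content. The median log2 ratio of those 23 genes to their control mean was -0.31, 0.23 and 0.08 in the control libraries and -0.40, 0.25 and -0.38 in the knockdown libraries. Control 1 thus resembled knockdowns 1 and 3, and knockdown 2 resembled control 2. For the 32 members of higher GC content the medians were 0.01, 0.04 and -0.05 in controls and -0.17, -0.14 and -0.26 in knockdowns, so there the groups did separate. When the trend of each library on GC content was removed, in a fit chosen after seeing the data, the 7 falls were called again together with NPM1, and the median of the members was -0.12.

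**Figure D4:**
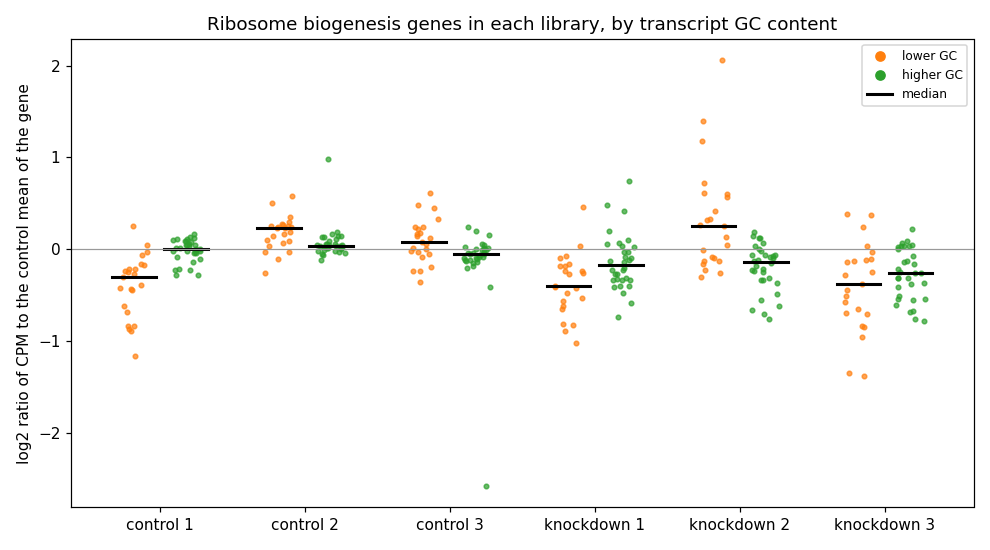
Log2 ratio of each member to its own control mean (y axis) in each library (x axis), for the 23 members of lower and the 32 of higher GC content, with medians as black bars. The lower GC medians run from -0.40 to 0.25 with no order by group, and the higher GC medians are all lower in knockdowns than in controls.

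Promoter windows from RefSeq (GRCh38.p14, 250 bases before to 50 after the start site, 300 in all) were found for 46 of the 55 genes. The E-box CACGTG, the core site of MYC and its partner MAX, was in 17 of the 46 (37.0%) and in 10.1% of the windows of tested genes. In 15 of 46 members (32.6%) it lay between 20 bases before and 41 bases after the start site, against 2.08% of tested genes. That range was set after the positions were seen. A match is a stretch of letters and does not show binding. The letters are the same on both strands, and the windows below, at most 30 bases long, show it in capitals in the 7 members with an E-box near the start and a level above 40 RPKM. RRP9 is on chromosome 3, FBL on 19, MRTO4 on 1, IMP4 on 2, PES1 on 22, BYSL on 6 and NOP10 on 15.
RRP9, chr3:51941892-51941921, minus strand: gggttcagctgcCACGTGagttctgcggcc
FBL, chr19:39846356-39846385, minus strand: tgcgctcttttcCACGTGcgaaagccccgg
MRTO4, chr1:19251807-19251836, plus strand: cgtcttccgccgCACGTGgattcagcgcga
IMP4, chr2:130342900-130342929, plus strand: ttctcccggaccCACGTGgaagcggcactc
PES1, chr22:30591880-30591909, minus strand: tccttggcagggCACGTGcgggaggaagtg
BYSL, chr6:41921515-41921544, plus strand: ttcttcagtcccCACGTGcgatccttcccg
NOP10, chr15:34343130-34343159, minus strand: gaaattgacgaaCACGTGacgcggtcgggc

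None of these 7 genes was called after knockdown. The 16 tested members with an E-box had a median log2 fold change of -0.14, a range from -0.31 to 0.16 and 0 calls. The 29 without one had a median of -0.15, a range from -0.65 to 0.81 and 5 calls. Called lower were 13.0% of all tested members and 6.66% of all tested genes, so few calls would fall in groups of this size. Whether an E-box has a part in which members were called was not tested. The called genes RRS1 and TCOF1 are among the 9 members for which no window was matched. MYC itself read 375, 339 and 402 CPM in controls and 311, 264 and 306 CPM in knockdowns, a small fall (-0.34, adjusted p = 0.0449). Leaving out control 1, control 3, knockdown 2 or knockdown 3 ended that call (adjusted p = 0.0791, 0.131, 0.0831 and 0.0866), as did no scaling factor (0.0849).

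The 150 bases before the start site are shown for the 5 called genes with a window. None of these stretches holds an E-box. Capitals mark the ETS core CCGGAAG and the box CCAAT, each on either strand, which do not overlap here.
NOP56, chr20:2652482-2652631, plus strand: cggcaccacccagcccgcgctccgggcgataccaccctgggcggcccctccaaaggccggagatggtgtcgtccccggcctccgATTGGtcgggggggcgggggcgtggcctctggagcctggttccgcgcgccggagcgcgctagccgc
IMP3, chr15:75640225-75640374, minus strand: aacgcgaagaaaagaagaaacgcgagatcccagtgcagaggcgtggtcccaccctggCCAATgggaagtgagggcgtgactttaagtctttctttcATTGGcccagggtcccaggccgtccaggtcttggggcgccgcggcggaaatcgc
RRP1, chr21:43789427-43789576, plus strand: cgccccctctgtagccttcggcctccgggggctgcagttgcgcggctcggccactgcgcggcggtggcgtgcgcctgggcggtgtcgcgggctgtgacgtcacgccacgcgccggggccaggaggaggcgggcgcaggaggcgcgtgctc
WDR74, chr11:62839591-62839740, minus strand: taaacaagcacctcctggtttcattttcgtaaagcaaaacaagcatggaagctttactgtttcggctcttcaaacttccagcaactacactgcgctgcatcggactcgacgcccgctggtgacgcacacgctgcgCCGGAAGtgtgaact
DDX56, chr7:44573909-44574058, minus strand: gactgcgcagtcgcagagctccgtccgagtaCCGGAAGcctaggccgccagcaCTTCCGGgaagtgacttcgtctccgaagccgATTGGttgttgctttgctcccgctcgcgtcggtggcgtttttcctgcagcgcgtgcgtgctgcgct

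CCAAT was in the windows of NOP56, IMP3 and DDX56, 3 of the 5, and in 17 of all 46 members (37.0%, against 36.1% of tested genes). The ETS core was in those of WDR74 and DDX56 and in 17 of 46 members (37.0%, against 18.8%). RRP1 held neither. Of the other motifs searched on both strands, the TATA box TATAAA was in 2 of 46 members (5.50% of tested genes), the palindromic NRF1 site in 3 (2.26%) and the YY1 core AAGATGGC in 4 (5.40%), none of them in the 5 called genes. No motif was shared by all 5.

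A further 125 genes of ribosome synthesis, none of them among the 55, also held falls and no rises. Of the 123 tested, 14 fell (11.4%) and 0 rose. At an unadjusted p under 0.05 in edgeR's test, 26 were lower (21.1%) and 2 higher (1.63%). DESeq2 called 19 lower and 0 higher. Of all tested genes 6.66% were called lower and 6.27% higher, and 12.6% and 13.1% at an unadjusted p under 0.05. The median level of the further genes, 12.9 CPM in controls, lies between those of abundance quintiles 3 and 4. In quintiles 3 and 4, 4.10% and 11.2% of genes were called lower and 6.79% and 8.91% higher. Whether the further genes differ from genes of like abundance was not tested. The median log2 fold change of the further genes was -0.13, with 76 of 123 below 0 (61.8%, against 46.7% of all tested genes). Without control 2 the number of falls was 7, and without knockdown 3 it was 6. NOP53, a factor that guides the exosome to large subunit precursors, was not called but stood higher in each knockdown library, with a mean of 452 ± 23.0 CPM against 541 ± 29.8 CPM (SD, n = 3 per group; 0.26, adjusted p = 0.102), and passed the threshold with no scaling factor and with the stricter filter.

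POP1, a protein of the RNase MRP and RNase P particles that cut rRNA and tRNA precursors, had a log2 fold change near -1, as did NOC2L and NAT10, and the order of these 3 changed when control 2 was left out. Controls held 23.7, 27.5 and 19.3 CPM of it and knockdowns 11.6, 11.9 and 11.1 CPM. All 3 knockdown libraries are below the lowest control (-1.03, SE 0.17, adjusted p = 0.000794). NOC2L, a large subunit export factor, went from 550, 578 and 479 CPM to 292, 271 and 268 CPM (-0.95, SE 0.10, adjusted p = 1.34e-05). NAT10, the acetyltransferase that modifies small subunit rRNA, went from 77.8, 65.5 and 71.3 CPM to 42.8, 34.8 and 37.3 CPM (-0.90, SE 0.12, adjusted p = 0.000138). In both genes the groups are far apart.

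By role, 6 of 39 other small subunit genes fell, with the processome proteins UTP11 (-0.89) and TBL3 (-0.55) next to NAT10. Of 48 other large subunit genes 5 fell, including CCDC86 (-0.55), SURF6 (-0.53) and URB1 (-0.50). Of 20 rRNA nuclease genes 2 fell, and of 7 other polymerase I genes 1 fell. None of the 9 snoRNP assembly genes fell, although all 9 had a fitted change below 0, against 46.7% of all tested genes. The shares of genes called lower run from 0% to 15.4% by role, against 6.66% of all tested genes. The roles were not compared by a test. Without knockdown 3 the calls of SURF6, URB1 and UTP11 ended (adjusted p = 0.0872, 0.0869 and 0.0582). That of SURF6 also ended without control 1 or 2 (0.0704 and 0.0754), that of URB1 without control 1 (0.0515) and that of UTP11 without control 2 or 3 (0.0542 and 0.0772). Opposite-strand genes share 29.9% of the exon bases of TBL3 and 17.2% of those of CCDC86.

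**Figure D5:**
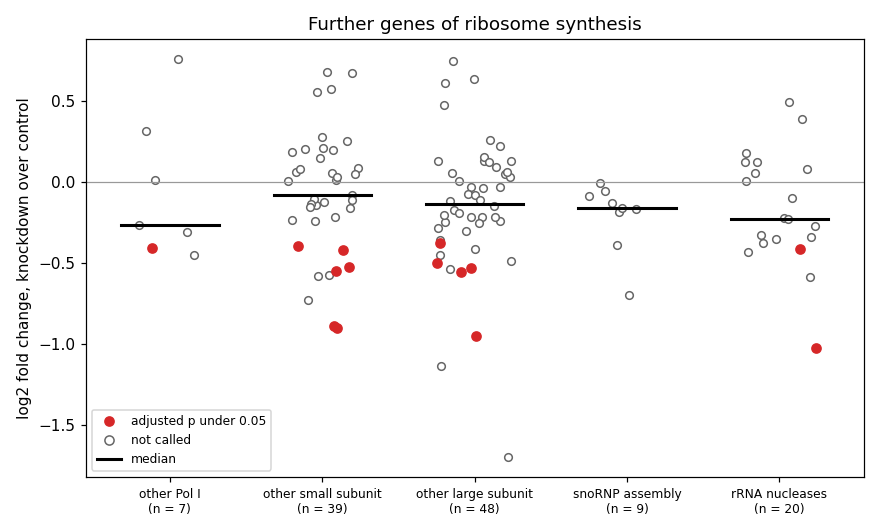
Log2 fold change (y axis, knockdown over control) of the 123 tested further genes of ribosome synthesis by role (x axis), with medians as black bars. The 14 called genes (red) all lie below 0, from -0.38 (MYBBP1A) to -1.03 (POP1), and the median of each role is below 0.

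The 79 cytosolic ribosomal protein genes, the cargo of this assembly line, had a median log2 fold change of -0.12. Of these 3 were called lower (3.80%) and 0 higher, and 58 of 79 were below 0 (73.4%). Over all tested genes 6.66% were called lower, 6.27% higher and 46.7% were below 0. In the most abundant quintile the shares were 15.8%, 9.32% and 56.2%. The 79 genes had a median of 1244 CPM in controls. Whether the lists differ was not tested.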

How the data were processed

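Raw read counts per gene were deposited as 1 table with 1 column per library, matched to samples by library name. Per the submitters' processing notes, cutadapt 2.8, HISAT2 2.1.0, SAMtools 1.10, featureCounts 2.0.0 and hg38 were used. For annotation release, strand setting and multi-mapped reads the sources used here give nothing, so overlapping genes and genes with copies are uncertain. The gene length in bases is another deposited column, as the authors made it; every per-sample column was used.

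Genes were kept with filterByExpr (minimum count 10, minimum total 15) and compared by edgeR 4.0.16 under R 4.3.3 (robust quasi-likelihood fit on TMM-scaled counts, 3 against 3 libraries, no covariate), with Benjamini-Hochberg adjustment over all 14649 tested genes. SE is the log2 fold change over the root of its F statistic. CPM are TMM scaled, and RPKM divide them by gene length. Tested on simulated data, the fit called unchanged genes somewhat more often than the nominal share at this threshold, so calls near it, such as those of RRS1 and DDX56, are less firm than their adjusted p. Coordinates and exon overlaps come from GENCODE 29 (GRCh38) and were found for all 55 members.

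The members and lists were chosen with earlier results of these data known. Named by rule were IGF2BP1, MYC, called members, members with an unadjusted p under 0.05, the 2 lowest and 2 highest per role, the 5 highest and 3 lowest in RPKM, and the 8 called other genes with the smallest p. Others named were chosen after their values were seen. Alternatives were RLE or no scaling, no or a stricter count filter (5 CPM in 3 libraries), a replicate block, DESeq2 1.42.0, limma-voom (limma 3.58.1), leaving out each library and, chosen after seeing the data, removing GC trends.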

Additional observations from a re-analysis of the deposited data

How the results depend on the processing

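The number of members called lower was 7 to 9 under the 8 alternatives that kept all libraries, and 0 were called higher under any of the 14. Leaving out 1 library gave 4 to 9 lower members, a median from -0.23 to -0.096, 6 to 13 lower genes among the further ribosome genes and 1231 to 1948 called genes in all. Of the further genes 1, NOP53, was called higher with no scaling factor, 1 with the stricter filter and 1 with the replicate block. Members near 0 changed sign. DDX21 was -0.035 with the block, -0.055 with limma-voom and -0.040 with GC trends removed. FBL was -0.013 with RLE scaling, -0.0096 with no count filter and -0.016 with DESeq2, and POLR1E was -0.012, -0.010 and -0.016. NOP58 was -0.093 with the block, -0.0043 with DESeq2, -0.0997 with limma-voom and -0.063 with GC trends removed. NCL was 0.022 with no scaling factor. UTP14A was 0.070 with no scaling factor, 0.024 with the stricter filter, 0.0012 with limma-voom and 0.037 with GC trends removed. Leaving out 1 library moved DDX10 from -0.49 to 0.048, DDX18 from -0.37 to 0.66, DDX21 from -0.43 to 0.25, FBL from -0.027 to 0.017, GAR1 from -0.017 to 0.21, NCL from -0.34 to 0.083, NHP2 from -0.047 to 0.085. It moved NOP10 from -0.028 to 0.20, NOP2 from -0.36 to 1.097, NOP58 from -0.56 to 0.22, POLR1E from -0.037 to 0.018, RRP12 from -0.037 to 0.21, UTP14A from -0.17 to 0.080 and UTP20 from -0.58 to 0.14. The cause was not tested.

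With the replicate number as a block, 9 members and 20 further genes were called lower and 2431 genes in all. The 2 added members were TAF1D (adjusted p = 0.0407) and NPM1. Same-numbered libraries correlated at 0.18, 0.086 and -0.073 in their deviations, so the numbers were not taken as pairs. Not every library correlated best with its own number. LTV1, with 3 to 28 reads per library, did not pass the count filter.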
